A study of Mus musculus with 12 samples.

Results

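The conversion of fructose-6-phosphate to fructose-1,6-bisphosphate, the committed step of glycolysis, was described here by the transcripts of the enzymes that carry it out and set its rate. The 8 genes were chosen by name, of 54232 gene IDs counted, for the levels of their isoforms and for changes in opposite directions between the conditions of these same libraries. Their levels and their differences between the conditions are therefore given as a description and not as a test. Mouse eye organoids were grown from Rax-GFP knock-in heterozygous embryonic stem cells, in which 1 allele of the eye field gene Rax carries GFP, and all libraries are labelled day 7 and come from the same line. LDHi+lactate organoids received 20 µM GNE-140, an inhibitor of lactate dehydrogenase, for 3 days together with 25 mM sodium L-lactate, LDHi organoids received 20 µM GNE-140 for 3 days, and control organoids received neither. Each group holds 4 libraries of RNA from whole organoids, in which fewer cells of a type and less RNA per cell cannot be told apart. The labels speak of a lactate pretreatment, whereas the methods give lactate together with GNE-140.

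Phosphofructokinase-1 (PFK-1) is a tetramer built from liver-type (Pfkl), muscle-type (Pfkm) and platelet-type (Pfkp) subunits, which tissues express in different proportions. It is inhibited by ATP and citrate and is activated by AMP and by fructose-2,6-bisphosphate. That activator is made and removed by bifunctional PFK-2/FBPase-2 isozymes, which carry a kinase and a phosphatase in the same protein. Pfkfb1 encodes the liver isozyme and Pfkfb2 the heart isozyme. Pfkfb3 encodes an isozyme whose kinase greatly exceeds its phosphatase, and Pfkfb4 was first known from testis. Tigar, first described in human cells as a p53-inducible gene, encodes a phosphatase that lowers fructose-2,6-bisphosphate and can favour the pentose phosphate pathway.

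Total counts were 29255114 to 42489921 in LDHi+lactate, 22174002 to 46881759 in LDHi and 25209097 to 48271386 in control libraries. Replicates 3 and 4, whose cell type label is retina progenitors, had a median of 26023789.5 counts, and replicates 1 and 2, labelled eye organoid, had 44154500.5. All 8 genes passed the filter on low counts, which kept 17721 genes. The lowest count of any of them in a library was 126, for Pfkfb2 in LDHi replicate 3. The summed level of 8 eye field and retina markers was 763.5 to 1080.0 CPM (counts scaled to library size) in LDHi+lactate, 599.1 to 666.9 CPM in LDHi and 848.8 to 1514.0 CPM in control libraries. Pluripotent stem cell markers (8 genes) summed to 499.1 to 1004.0, 609.7 to 1095.0 and 237.0 to 484.2 CPM in the same groups, and mesenchyme markers (8 genes) to 137.7 to 182.5, 108.7 to 169.5 and 176.7 to 839.3 CPM. In LDHi against control, the fit with replicate number as a block called 8 of 8 stem cell markers higher, 8 of 8 eye markers lower and 6 of 8 mesenchyme markers lower. Higher too were 3 of 7 endoderm and 1 of 9 tested muscle markers, and 0 of 6 neuron markers were called. Of all genes 9.85% were higher and 10.1% lower. Without the block 6 stem cell markers were higher, and 4 eye and 4 mesenchyme markers lower. The other 3 lists then had 0 calls, and 0.909% of all genes were higher and 2.18% lower. The part that these shifts in cell type markers play in the differences described below was not tested.

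The stretches of DNA before the gene starts are shown first for the genes that differed most between the conditions, Pfkp and Pfkfb3, and for Pfkm, which went the other way. Sequences are from RefSeq (GRCm38.p6, the build mm10 of the counts), read 5′ to 3′ on the strand of the gene, and end where an annotated exon begins. Capitals mark ACGTG or GCGTG on either strand, the core letters that hypoxia-inducible factors bind. Which start site the organoids use cannot be read from counts per gene.
Pfkp, chr13:6648778-6649021, minus strand, -250 to -7 from the start: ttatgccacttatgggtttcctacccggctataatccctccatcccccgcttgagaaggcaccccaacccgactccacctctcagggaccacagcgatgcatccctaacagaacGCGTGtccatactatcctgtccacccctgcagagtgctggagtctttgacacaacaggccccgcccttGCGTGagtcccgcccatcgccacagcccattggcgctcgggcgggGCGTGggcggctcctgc
Pfkfb3 upstream start, chr2:11554078-11554179, minus strand, -250 to -149: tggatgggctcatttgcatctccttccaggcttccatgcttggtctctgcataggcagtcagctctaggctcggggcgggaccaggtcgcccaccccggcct
Pfkfb3 downstream start, chr2:11502102-11502340, minus strand, -250 to -12: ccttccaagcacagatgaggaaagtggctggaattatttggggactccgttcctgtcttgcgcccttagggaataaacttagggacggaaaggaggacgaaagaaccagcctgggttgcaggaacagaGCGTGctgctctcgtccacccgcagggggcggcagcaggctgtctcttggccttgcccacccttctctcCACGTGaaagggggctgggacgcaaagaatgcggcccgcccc
Pfkm first start, chr15:98092339-98092588, plus strand, -250 to -1: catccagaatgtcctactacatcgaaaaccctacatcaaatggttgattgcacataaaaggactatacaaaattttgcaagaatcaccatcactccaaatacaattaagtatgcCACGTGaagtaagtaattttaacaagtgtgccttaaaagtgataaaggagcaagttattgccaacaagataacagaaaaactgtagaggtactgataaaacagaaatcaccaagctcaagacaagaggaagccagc

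All 8 genes had windows of 300 bases (250 before to 50 after a start) in the RefSeq table, 17 windows in all, some of which overlap. Pfkp held 4 matches to GCGTG, at -136, -68, -23 and 30 from its start, beside 4 GC boxes (GGGCGG). The window of the downstream Pfkfb3 start held 2 matches to ACGTG, which are both strands of the same CACGTG at -53, and 2 to GCGTG, at -122 and 38. The window of the upstream Pfkfb3 start held 1 match to ACGTG at -60, which lies past the stretch printed. The first Pfkm window also held CACGTG, at -136, and no GC box. Tigar held neither core, and 2 GC boxes. Of the 17 windows, 12 held at least 1 of the cores, and 43.8% of 32851 promoter windows of the table held one. By gene, 7 of the 8 held a core in at least 1 of their windows, and no share by gene was counted over all genes. ACGTG was found in 19.6% of those windows, GCGTG in 32.4%, CACGTG in 7.15%, GGGCGG in 35.7% and TATAAA in 13.6%. A match is a description of letters and not a bound site.

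PFK-1 transcripts were mostly Pfkl, the liver-type subunit (chr10:77986947-78010083, minus strand). Pfkl measured 531, 659, 802 and 798 CPM in LDHi+lactate replicates 1 to 4, 574, 619, 931 and 884 CPM in LDHi and 636, 592, 733 and 724 CPM in control. The groups overlapped, and replicates 3 and 4 were the highest in each group. Pfkm, the muscle-type subunit (chr15:98092589-98132451, plus strand), measured 102.8, 100.6, 121 and 118 CPM in LDHi+lactate, 100.7, 99.4, 118 and 122 CPM in LDHi and 125, 107, 147 and 140.2 CPM in control. The control library was the highest of its replicate number in all 4 experiments, although the ranges overlapped. Markers of striated muscle, where this subunit predominates, summed over 12 genes to 20.65 to 43.0 CPM in LDHi+lactate, 21.04 to 34.71 CPM in LDHi and 17.34 to 29.61 CPM in control libraries, and 3 of those 12 genes did not pass the filter.

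Pfkp, the platelet-type subunit (chr13:6579768-6648777, minus strand), measured 73.1, 170.1, 91.3 and 77.3 CPM in LDHi+lactate, 83.05, 123, 107 and 118.5 CPM in LDHi and 61.2, 69.9, 50.5 and 67.1 CPM in control. Every library with GNE-140 lay above every control library, with or without lactate. LDHi+lactate replicate 2 stood high, at more than any other of the 12 libraries. Pfkp shares 748 exon bases with Pitrm1 on the other strand, a gene with 66308 counts over the 12 libraries against 38222 for Pfkp. Whether reads were counted by strand is not known, so those in the shared bases are uncertain. The log2 fold change of Pitrm1 in LDHi against control was -0.16 (SE 0.075), and with the replicate block, which called it lower, it was -0.16 (SE 0.045).

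**Figure D1:**
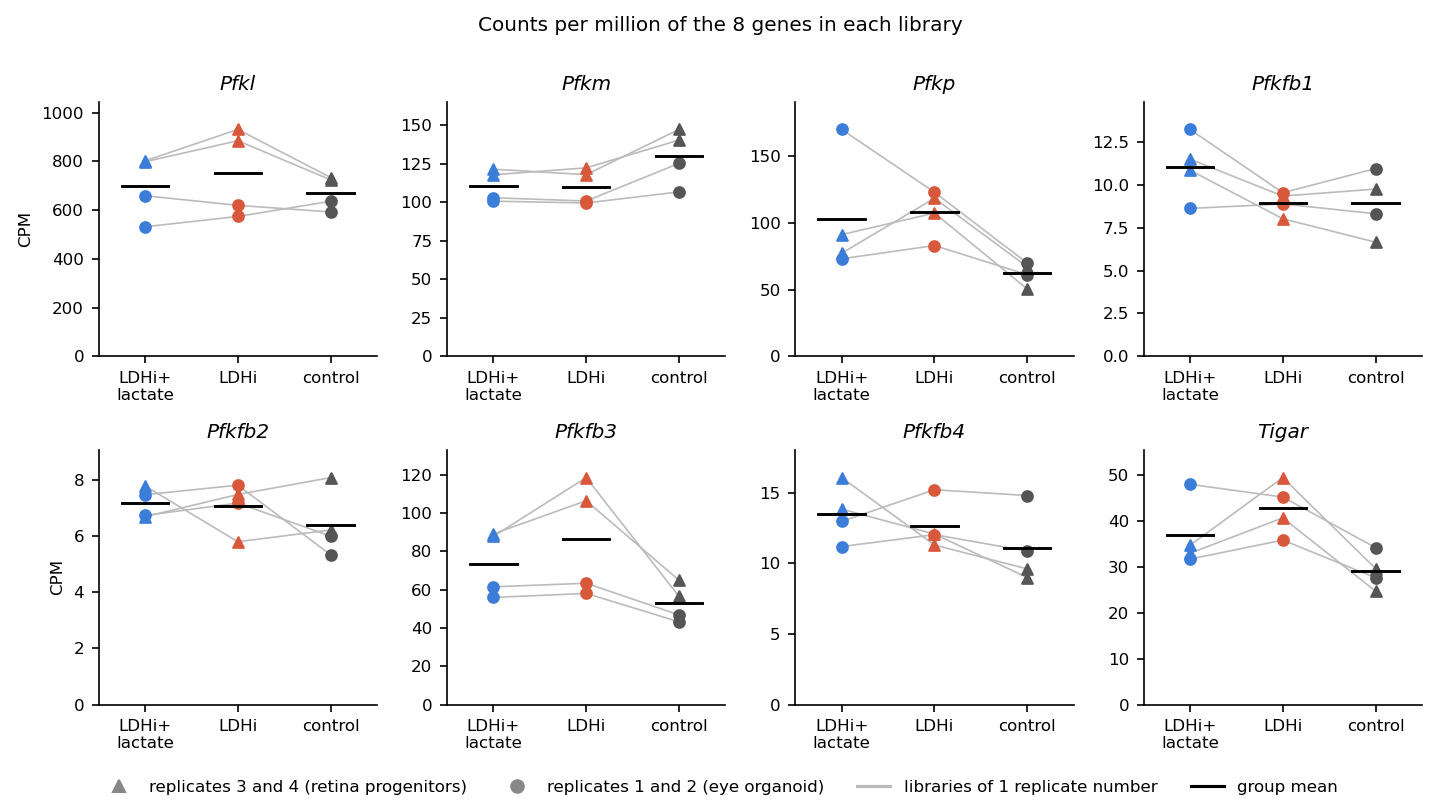
CPM of each of the 8 genes (y axis, from 0) in the LDHi+lactate, LDHi and control libraries (x axis), with grey lines joining libraries of the same replicate number, black bars for the group means, triangles for replicates 3 and 4 and circles for replicates 1 and 2. The 4 control libraries of Pfkp sit at 50.5 to 69.9 CPM, below all 8 libraries with GNE-140, and the triangles of Pfkl lie above its circles in every group.

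Pfkfb3, the kinase-dominant isozyme (chr2:11471433-11554077, minus strand), was the most abundant PFK-2/FBPase-2 transcript. It measured 61.5, 56.0, 87.85 and 89.2 CPM in LDHi+lactate, 63.4, 58.1, 118.6 and 106.5 CPM in LDHi and 46.8, 43.2, 56.5 and 65.0 CPM in control. Within each replicate number the control library was the lowest and the LDHi library the highest, whereas the ranges of the groups overlapped. Pfkfb4 (chr9:108991778-109032228, plus strand) measured 13.0, 11.2, 13.8 and 16.1 CPM in LDHi+lactate, 15.2, 12.0, 12.1 and 11.3 CPM in LDHi and 14.8, 10.9, 8.99 and 9.597 CPM in control. The LDHi library was above the control library of its number in all 4 experiments, by 0.04 to 0.42 on the log2 scale, and control replicate 1 exceeded 3 of the 4 LDHi libraries.

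Pfkfb1, the liver isozyme (chrX:150588229-150643878, plus strand), measured 8.63, 13.2, 11.5 and 10.85 CPM in LDHi+lactate, 8.88, 9.54, 9.345 and 8.02 CPM in LDHi and 8.315, 10.95, 9.75 and 6.66 CPM in control. LDHi+lactate was above control in all 4 experiments and above LDHi in 3 of 4. Pfkfb2, the heart isozyme (chr1:130689182-130729253, minus strand), had the lowest mean of the 8 genes in each group, at 6.74, 7.48, 7.79 and 6.69 CPM in LDHi+lactate, 7.18, 7.82, 5.80 and 7.49 CPM in LDHi and 6.001, 5.33, 6.22 and 8.09 CPM in control. Its groups overlapped throughout. Tigar (chr6:127085116-127109557, minus strand) measured 31.7, 47.97, 34.7 and 33.0 CPM in LDHi+lactate, 35.8, 45.2, 49.4 and 40.7 CPM in LDHi and 27.6, 34.2, 29.6 and 24.7 CPM in control. All 4 LDHi libraries lay above all 4 control libraries, and as with Pfkp, replicate 2 was the highest LDHi+lactate library. Shared exon bases also make part of the reads of other genes uncertain, with Senp1 (18 bases) and Gm26513 (341 bases) for Pfkm, Apex2 (123 bases) for Pfkfb1, Yod1 (154 bases) and Gm29427 (1262 bases) for Pfkfb2, and Platr31 (122 bases) for Tigar.

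Levels were compared between genes per kilobase of exon (CPM divided by the length of the exon union). Pfkl averaged 104.5 ± 19.4 CPM per kb in LDHi+lactate, 112.7 ± 27.2 in LDHi and 100.6 ± 10.3 in control (SD, n = 4 each). Pfkm followed with 33.1 ± 3.12, 32.9 ± 3.49 and 38.85 ± 5.385 CPM per kb in the same groups. Tigar (10.1 ± 2.06, 11.7 ± 1.60 and 7.93 ± 1.09) and Pfkfb3 (9.74 ± 2.295, 11.5 ± 4.02 and 6.99 ± 1.30) came next, and their ranges overlapped in every group, so that their order is not separated. Pfkp reached 7.68 ± 3.39, 8.06 ± 1.33 and 4.64 ± 0.642 CPM per kb. Its range overlapped that of Pfkfb3 in both GNE-140 groups but not in control. The order of Tigar, Pfkfb3 and Pfkp depends on the length used. In CPM alone, LDHi means were 108.0 for Pfkp, 86.6 for Pfkfb3 and 42.8 for Tigar. The longest transcript is 3651 bases for Tigar, 4801 for Pfkfb3 and 8681 for Pfkp, against exon unions of 3658, 7561 and 13401 bases. Pfkfb4 and Pfkfb1 lay between 2.22 and 2.77 CPM per kb on average and were not separated from each other, and Pfkfb2 was below 1 CPM per kb on average.

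As a share of the summed PFK-1 level per kilobase, Pfkl held 71.6 ± 2.82% in LDHi+lactate, 72.9 ± 3.00% in LDHi and 69.8 ± 0.473% in control (SD, n = 4 each). The share of Pfkm was 21.3 to 26.6% in LDHi+lactate, 19.3 to 24.65% in LDHi and 25.35 to 27.9% in control libraries. Every LDHi library was thus below every control library in this share. The share of Pfkp was 3.59 to 8.97% in LDHi+lactate, 4.385 to 6.97% in LDHi and 2.39 to 4.145% in control libraries. The ratio of Pfkp to Pfkm per kilobase averaged 0.2375 ± 0.123 in LDHi+lactate, 0.246 ± 0.0443 in LDHi and 0.123 ± 0.0319 in control, and every LDHi library was above every control library. The lowest LDHi+lactate library (0.1637) was level with the highest control library (0.1635). The summed PFK-1 level was 115.9 to 163.2, 122.3 to 182.7 and 125.8 to 157.7 CPM per kb in LDHi+lactate, LDHi and control libraries, ranges that overlapped.

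Among the PFK-2/FBPase-2 isozymes, Pfkfb3 held 52.8 to 63.2% of the summed level per kilobase in LDHi+lactate, 56.5 to 73.7% in LDHi and 50.1 to 64.45% in control libraries. The family sum was 13.9 to 18.7 CPM per kb in LDHi+lactate and 13.6 to 21.3 in LDHi, above the 11.4 to 13.3 CPM per kb of control libraries, without overlap. The genes were chosen for such levels and differences, so nothing is read from this lack of overlap or from that of the PFK-1 shares and ratio. The ratio of Pfkfb3 to Pfkfb4 was 3.06 to 4.10 in LDHi+lactate, 2.69 to 6.34 in LDHi and 2.04 to 4.365 in control libraries. It was higher in replicates 3 and 4 than in 1 and 2 of the same group. Dividing by the longest transcript gave Pfkm a mean share of 17.05% over the 12 libraries in place of 23.9%, while the order of the 3 subunits and the leading place of Pfkfb3 were the same.

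**Figure D2:**
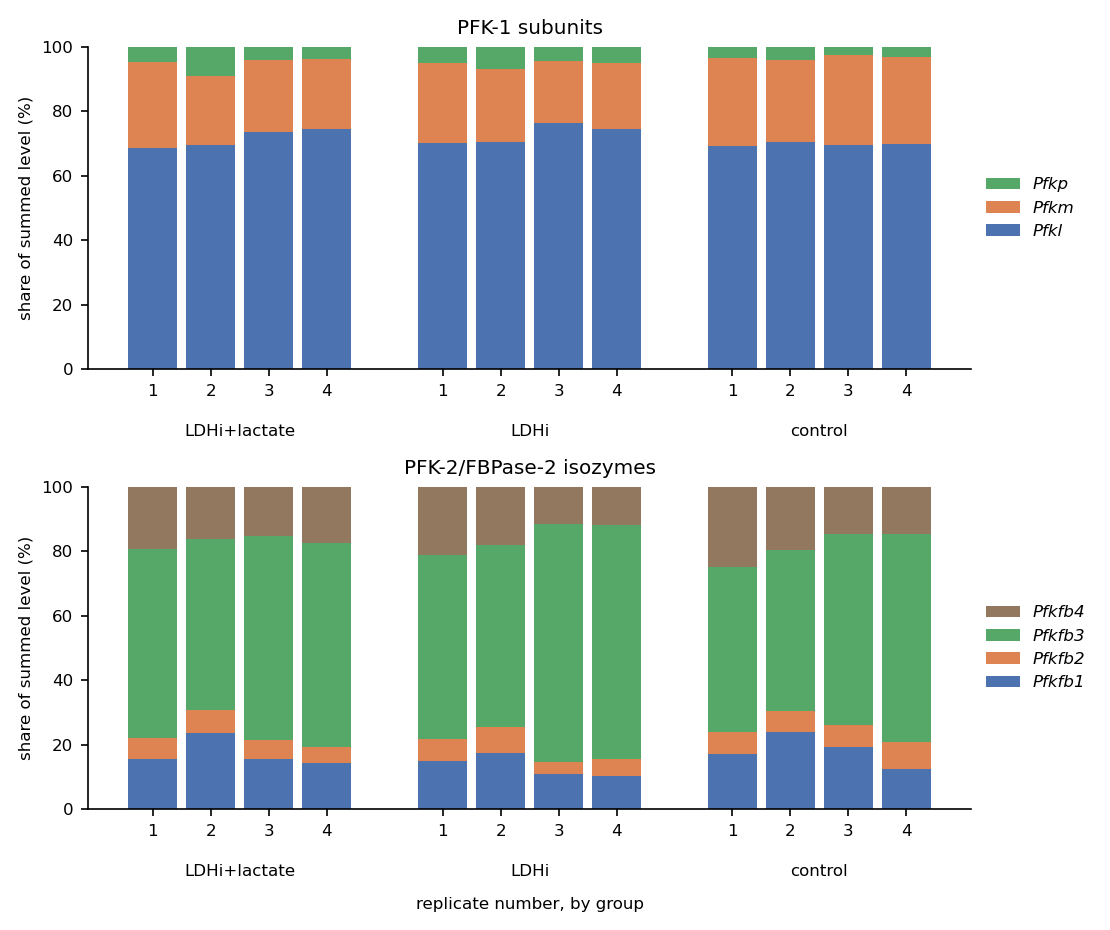
Stacked bars of the share of each gene (y axis, percent) in the summed level per kilobase of PFK-1 (upper panel) and of PFK-2/FBPase-2 (lower panel), 1 bar per library, by group and replicate number (x axis). Pfkl holds 68.7 to 76.3% of PFK-1 in every library, and Pfkfb3 holds the largest part of its family in each, at 50.1 to 73.7%.

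The first comparison of the study sets LDHi organoids against control organoids. The differences ran in both directions within PFK-1. The log2 fold change was 0.80 (SE 0.24) for Pfkp, -0.24 (SE 0.12) for Pfkm and 0.16 (SE 0.17) for Pfkl. Of the enzymes of fructose-2,6-bisphosphate it was 0.71 (SE 0.24) for Pfkfb3, 0.56 (SE 0.16) for Tigar, 0.19 (SE 0.18) for Pfkfb4, 0.14 (SE 0.17) for Pfkfb2 and 0.00 (SE 0.18) for Pfkfb1. The kinase-dominant Pfkfb3 and the phosphatase Tigar, which act on the same metabolite in opposite directions, were thus both higher. By replicate number, Pfkp was higher by 0.44, 0.82, 1.09 and 0.82 on the log2 scale, Pfkfb3 by 0.44, 0.43, 1.07 and 0.71, and Tigar by 0.38, 0.40, 0.74 and 0.72. Pfkm differed by -0.31, -0.10, -0.32 and -0.20.

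Without a block, edgeR's quasi-likelihood fit called 0 of the 8 genes at an adjusted p under 0.05 in this comparison, where it called 3.09% of the 17721 genes tested, 0.909% higher and 2.18% lower. Before adjustment 3 of the 8 were under 0.05, as were 16.5% of all genes, against 4 and 32.8% with replicate number as a block. The calls made by DESeq2 were Pfkp and Tigar, beside 474 genes higher and 853 lower of 19661 that it tested. Libraries of the same replicate number deviated together, and with that number as a block 4 of the 8 were called (19.9% of all genes), Pfkp, Pfkfb3 and Tigar higher (9.85%) and Pfkm lower (10.1%). The blocked log2 fold changes were 0.78 (SE 0.17) for Pfkp, 0.66 (SE 0.093) for Pfkfb3, 0.56 (SE 0.093) for Tigar and -0.23 (SE 0.050) for Pfkm. Groups did not overlap for 2 of the 8 genes, Pfkp and Tigar, as for 9.67% of all genes, 4.26% higher and 5.41% lower. In all 4 experiments 4 genes were higher and Pfkm was lower, and 36.5% of all genes kept 1 direction in this way, 18.5% higher and 17.9% lower. Since the genes were chosen on this comparison, nothing is read from these counts. With the block, leaving out replicate 3 left 2 of the 4 calls (Pfkfb3 and Tigar), and leaving out replicate 1 left 3 (without Pfkm). Without the block, 1 call (Tigar) appeared when control replicate 2 was left out, beside 275 genes higher and 597 lower of 17710. There were 2 calls (Pfkp and Tigar) when LDHi+lactate replicate 2 was left out, beside 219 genes higher and 448 lower of 17663.

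The second comparison asks what lactate does in the presence of the inhibitor. In LDHi+lactate against LDHi the log2 fold change was -0.23 (SE 0.24) for Pfkfb3, -0.22 (SE 0.16) for Tigar, -0.07 (SE 0.24) for Pfkp and 0.30 (SE 0.18) for Pfkfb1. It was -0.11 (SE 0.17) for Pfkl, 0.01 (SE 0.12) for Pfkm, 0.02 (SE 0.17) for Pfkfb2 and 0.09 (SE 0.18) for Pfkfb4. Pfkfb3 was lower with lactate in 4 of 4 experiments, at -0.04, -0.05, -0.43 and -0.26 on the log2 scale, and 21.8% of all genes kept 1 direction, 11.6% higher and 10.2% lower. The difference was thus near 0 in replicates 1 and 2, and the value ran from -0.39 (without LDHi replicate 2) to -0.045 (without LDHi replicate 3). Tigar was lower in 3 of 4, at -0.18, 0.09, -0.51 and -0.30, and its value ran from -0.37 (without LDHi+lactate replicate 2) to -0.14 (without LDHi replicate 3). For Pfkp the value rests on LDHi+lactate replicate 2, without which it was -0.42.

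In this comparison edgeR called 0 of the 8 genes without the block (0.0% of all genes) and 0 with it (0.638%, 0.57% higher and 0.0677% lower). DESeq2 called 0 of the 8, beside 54 genes higher and 2 lower of 18332. An unadjusted p under 0.05 was reached by 0 of the 8 without the block and by 2 with it, Pfkfb1 and Tigar, beside 3.4% and 11.4% of all genes. Groups overlapped for all 8 genes, and 2.1% of all genes had no overlap, 1.51% higher and 0.587% lower. With the block, 4 of 8 eye markers were higher and 0 of 8 stem cell markers were called, and without it 0 of either list. The comparison shares its LDHi libraries with the first. In LDHi+lactate against control, which shares libraries with both, the log2 fold change was 0.73 (SE 0.24) for Pfkp, 0.48 (SE 0.24) for Pfkfb3, 0.34 (SE 0.16) for Tigar, 0.31 (SE 0.18) for Pfkfb1, 0.29 (SE 0.18) for Pfkfb4, 0.16 (SE 0.17) for Pfkfb2, 0.06 (SE 0.17) for Pfkl and -0.23 (SE 0.12) for Pfkm. Of these, 0 were called without the block (0.0% of all genes) and 3 with it (8.05%), Pfkp and Pfkfb3 higher (4.18%) and Pfkm lower (3.87%). Only the groups of Pfkp did not overlap, as for 4.23% of all genes, 2.12% higher and 2.11% lower. In all 4 experiments Pfkp, Pfkfb1, Pfkfb3 and Tigar were higher and Pfkm lower, and 35.6% of all genes kept 1 direction, 18.6% higher and 17.0% lower. Nothing is read from these counts either. An unadjusted p under 0.05 was reached by 2 without the block and by 5 with it, beside 9.33% and 26.4% of all genes. With the block, leaving out replicate 1 or 4 left 0 of the 3 calls, replicate 2 left Pfkm and Pfkfb3, and replicate 3 left Pfkfb3. Without LDHi+lactate replicate 2 and with no block, the value for Pfkp was 0.36.

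**Figure D3:**
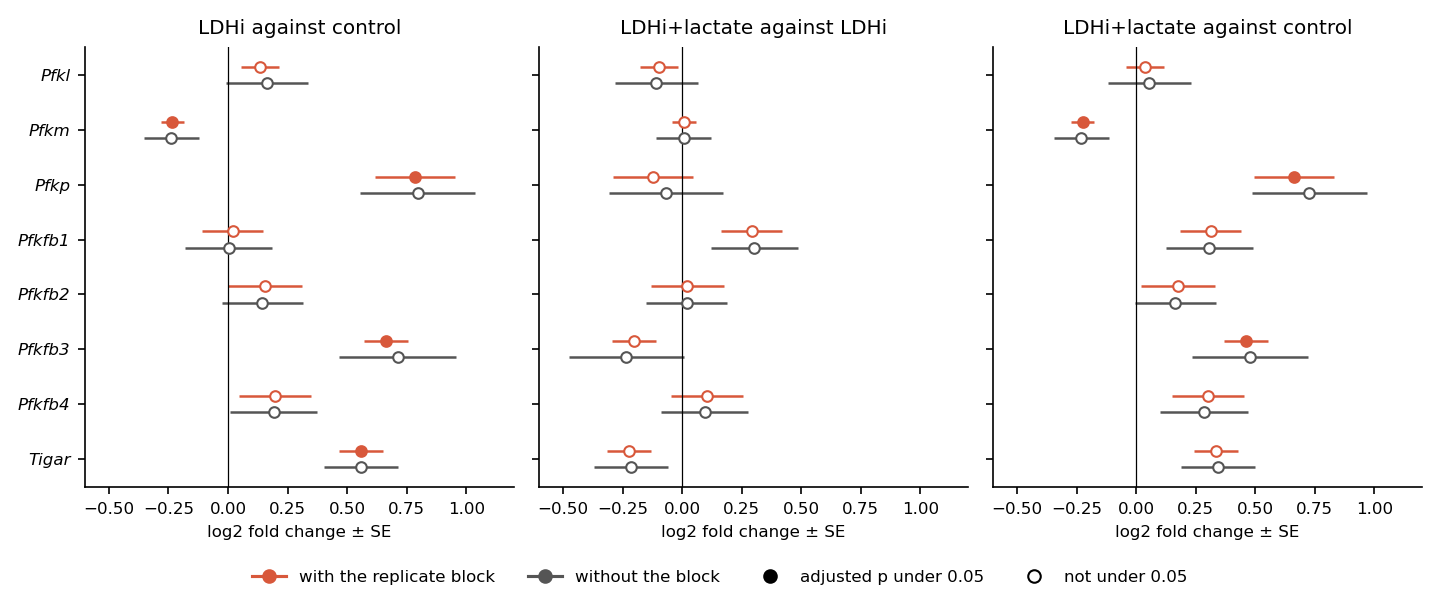
Log2 fold change with its standard error (x axis) of the 8 genes (y axis) in the 3 comparisons, with the replicate block in red and without it in grey, and filled points for an adjusted p under 0.05 over all genes. Filled points appear only with the block, for 4 genes in LDHi against control and 3 in LDHi+lactate against control, and Pfkm is the only filled point left of 0.

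The labels split each group into 2 sets, which the choice of genes did not use. The set of replicates 3 and 4 (retina progenitors) was compared with that of replicates 1 and 2 (eye organoid) in a fit with treatment and set as terms. Pfkl, Pfkfb3 and Pfkm were higher in the retina progenitors set. Pfkl averaged 812.0 ± 82.0 CPM in retina progenitors and 601.9 ± 46.0 CPM in eye organoid libraries (SD, n = 6 each), without overlap, a log2 difference of 0.43 (SE 0.070, edgeR adjusted p = 0.0013). Pfkfb3 averaged 87.3 ± 23.7 and 54.8 ± 8.11 CPM in the same sets, a log2 difference of 0.64 (SE 0.079, edgeR adjusted p = 0.00024). Pfkm averaged 127.7 ± 12.7 and 105.9 ± 9.77 CPM, a log2 difference of 0.27 (SE 0.047, edgeR adjusted p = 0.0018). The ranges of Pfkfb3 and of Pfkm overlapped between the sets, since treatment also separates these libraries. The share of all genes without overlap between the sets was not counted, so nothing is read from its lack for Pfkl.

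The other 5 genes did not pass the test between sets, with log2 differences of -0.18 (SE 0.20) for Pfkp, -0.13 (SE 0.14) for Pfkfb4, -0.09 (SE 0.14) for Pfkfb1, -0.09 (SE 0.12) for Tigar and 0.06 (SE 0.13) for Pfkfb2. Thus 3 of the 8 genes were called, where 27.9% of all genes were, 13.7% higher and 14.3% lower. The same 3 genes were called in DESeq2 and with each library left out, settings for which calls over all genes were not counted. Each set holds only 2 experiments, whose libraries deviate together, so these p-values are too small, and an exact test of 2 experiments against 2 cannot go below 0.333. The sets also differ in depth and label, which cannot be told apart.

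Genes known to be induced by hypoxia-inducible factors differed between the same sets. Of 16 such genes outside glycolysis, 12 were higher in the retina progenitors set and 0 lower, where 13.7% of all genes were higher and 14.3% lower. The median log2 difference was 0.44 against -0.01 over all genes. Each set holds only 2 experiments, so the p-values behind these calls, and those of the lists below, are too small as well. Ankrd37 (1.28, SE 0.15), Adm (2.24, SE 0.31), Ero1l (0.37, SE 0.071) and Ddit4 (0.82, SE 0.16) had the smallest adjusted p, and Ndrg1 (0.25, SE 0.10) and Vegfa (0.10, SE 0.090) did not pass. Other lists had calls between the sets too. Of 14 p53 target genes 7 were higher and 3 lower, with a median log2 difference of 0.29. Of 12 genes that regulate the step or its enzymes 4 were higher and 4 lower. In the pentose phosphate pathway 0 of 10 were higher and 3 lower, and 0 of 2 fructose bisphosphatases were called. Of 20 genes of other glycolysis steps, 8 were higher and 1, Pgam2, lower. Pgam2, Hk2 and Slc16a3 are named here after their values were seen. Hk2, which phosphorylates glucose at the entry of the pathway, averaged 187.3 ± 26.5 CPM in retina progenitors and 109.9 ± 8.79 CPM in eye organoid libraries (SD, n = 6 each), and Slc16a3, a lactate exporter, averaged 279.5 ± 31.4 and 159.3 ± 35.0 CPM. Their part in the differences of Pfkl, Pfkfb3 and Pfkm was not tested. Summed eye field markers were 599.1 to 1407.0 CPM in retina progenitors and 616.6 to 1514.0 CPM in eye organoid libraries, with 1 of 8 higher and 1 lower. Endoderm markers summed to 82.55 to 268.0 CPM in retina progenitors and 175.3 to 344.6 CPM in eye organoid libraries, with 2 of 7 lower and a median log2 difference of -0.74. Of the other marker lists, 1 of 8 mesenchyme and 1 of 9 tested muscle markers were higher, and none of the stem cell or neuron markers was called. The part of these markers was not tested either.

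Whether the effect of LDHi differed between the sets was tested with an interaction. Pfkfb3 was higher in LDHi than in control by a mean of 0.89 on the log2 scale in replicates 3 and 4 and by 0.43 in replicates 1 and 2, a difference of 0.46 (SE 0.15). Pfkl gave 0.32 and -0.04, a difference of 0.36 (SE 0.15), so that 1 set was higher and the other near 0. Both had an unadjusted p under 0.05, as did 3.92% of all genes, and neither passed the adjustment (edgeR adjusted p = 0.89 for both). No member was called by edgeR or DESeq2, and edgeR called 0.0% of all genes. For lactate, the interaction called 0 of the 8 (0.0% of all genes), with 0 under 0.05 before adjustment and none by DESeq2. The estimates were -0.30 (SE 0.15) for Pfkfb3, 0.53 (SE 0.29) for Pfkfb4 and -0.66 (SE 0.48) for Pfkp.

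**Figure D4:**
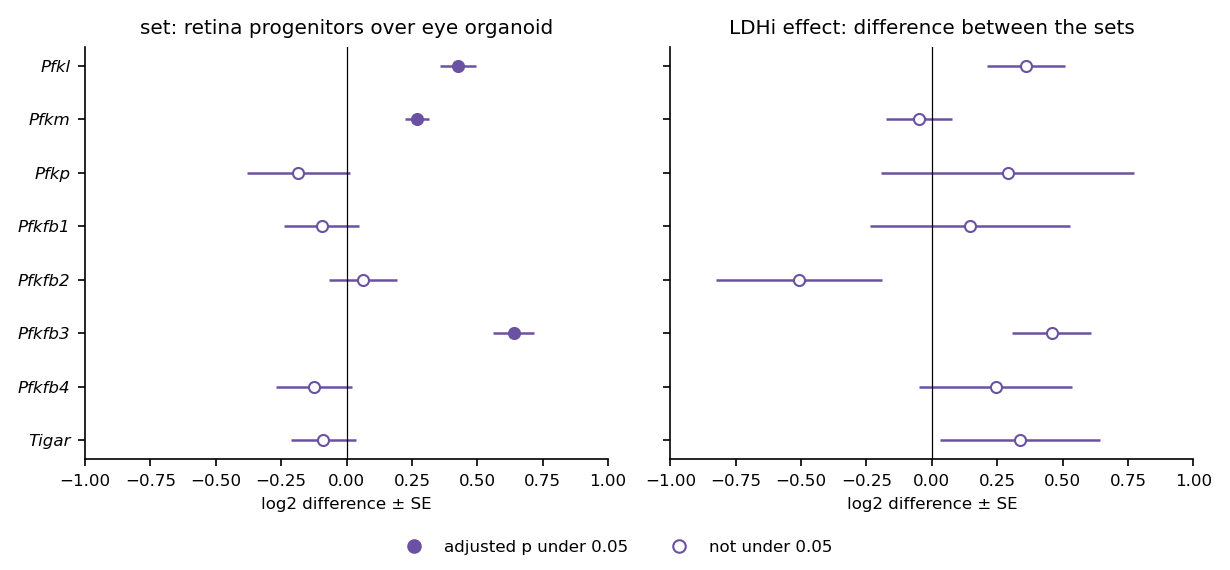
Log2 difference with its standard error (x axis) of the 8 genes (y axis) between the retina progenitors and eye organoid sets (left) and of the LDHi effect between those sets (right), with filled points for an adjusted p under 0.05 over all genes. Pfkl, Pfkm and Pfkfb3 are filled on the left, at 0.43, 0.27 and 0.64, and no gene is filled on the right.

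The genes around the step were read from the same fits, with the block, in LDHi against control (19.9% of all genes called, 9.85% higher and 10.1% lower). Of the 20 genes of the other glycolysis steps, 0 were higher and 2 lower, with a median log2 fold change of 0.01, as over all genes. Eno3, the muscle enolase, fell by 1.84 (SE 0.19) on the log2 scale to 28.55 ± 6.64 CPM in LDHi, against 103.4 ± 30.0 CPM in control (SD, n = 4 each). Eno2, the neuronal enolase, fell by 1.23 (SE 0.15). Eno3 was also the gene of this list called in LDHi+lactate against LDHi, at 1.03 (SE 0.18). Pkm (0.20, SE 0.069) and the glucose transporter Slc2a3 (0.48, SE 0.17) did not pass. The enzymes that reverse the step, Fbp1 (1.72, SE 0.68) and Fbp2 (1.04, SE 0.34), did not pass and were low, with a sum of 3.24 to 11.5 CPM in LDHi and 2.21 to 4.31 CPM in control libraries.

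In the pentose phosphate pathway, which branches off before the step, 3 of 10 genes were higher and 0 lower. These were Pgd, the second dehydrogenase of its oxidative branch (0.36, SE 0.049), Rpe (0.35, SE 0.067) and the transaldolase Taldo1 (0.29, SE 0.055). Pgd averaged 252.5 ± 12.7 CPM in LDHi and 197.6 ± 17.9 CPM in control, without overlap. Tktl1 (1.28, SE 0.46) and Prps1 (0.16, SE 0.070) did not pass. Without the block Pgd was the call in this list. Of 12 genes that regulate the step or its enzymes, 4 were higher, namely Epas1 (0.52, SE 0.097), Trp53 (0.39, SE 0.084), Fzr1 (0.18, SE 0.044) and Mycn (0.23, SE 0.063), and Myc was lower (-0.66, SE 0.18). Fzr1 encodes the activator of the ubiquitin ligase that degrades Pfkfb3 protein in rat neurons. Hif1a (-0.13, SE 0.054) and Mlxipl, a glucose-responsive factor (0.45, SE 0.18), did not pass. Without the block 0 of these 12 were called.

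Of 14 p53 target genes, 12 were higher and 0 lower, with a median log2 fold change of 0.49. Phlda3 (0.59, SE 0.066), Sesn2 (0.49, SE 0.057), Trp53inp1 (0.57, SE 0.073) and Mdm2 (0.47, SE 0.064) had the smallest adjusted p. Without the block 0 of the 14 were called. Pmaip1 (0.46, SE 0.19) and Sesn1 (0.11, SE 0.064) did not pass. Of the 16 hypoxia-inducible genes outside glycolysis, 2 were higher, Kdm3a (0.59, SE 0.059) and Ndrg1 (0.77, SE 0.10), and 0 lower, with a median of 0.06. Adm (1.125, SE 0.37) and Ero1l (0.20, SE 0.087) did not pass. Without the block Ndrg1 was the call in this list. In LDHi+lactate against LDHi, 0 genes were called in the pentose phosphate, regulator, hypoxia and p53 lists with the block. The lists were chosen with earlier results of these data known, and their calls are not independent evidence.

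**Figure D5:**
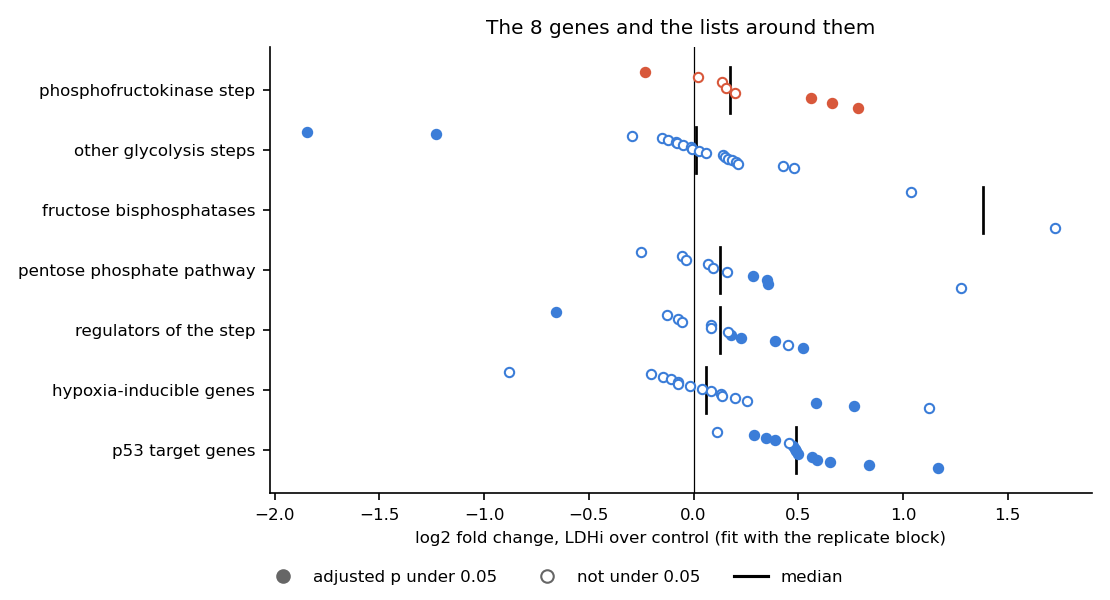
Log2 fold change in LDHi against control (x axis, fit with the replicate block) of each of the 8 genes (red) and of each gene of the lists around them (blue), by list (y axis), with filled points for an adjusted p under 0.05 over all genes and black bars for the median. The p53 targets have a median of 0.49 with 12 of 14 filled, and the other glycolysis steps a median of 0.01 with the 2 enolases Eno3 and Eno2 filled on the left.

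Across the 12 libraries, Pfkp and Tigar had the highest Pearson r of log2 CPM among the 8 genes (0.87, and 0.74 of the deviations from the group means). The first value includes the differences between groups for which the genes were chosen. Pfkl and Pfkfb3 followed (0.82 and 0.91), and theirs was the highest r of the deviations. Pfkm gave 0.54 and 0.82 with Pfkl and 0.17 and 0.86 with Pfkfb3, and Pfkfb1 and Tigar gave 0.50 and 0.79. Pfkm and Tigar gave -0.59 and -0.32. The 12 points share 4 experiments and 2 sets, and the values are given as a description. Among 10495 genes (mean log2 CPM 3 or more), the pattern of Pfkl was most alike in Gm6560 (r = 0.984, and 0.985 of the deviations), annotated as a processed pseudogene, Hk2 (0.97 and 0.973) and Snx27 (0.952 and 0.95). The parent gene of Gm6560 is not given in the annotation used, and reads shared with a copy would be uncertain. For Pfkm these were Flna, Dzip1l and Plcg1 (0.96 to 0.965, and 0.947 to 0.962 of the deviations), for Pfkp Esrp1, Ino80 and Abcc5 (0.94 to 0.954, and 0.895 to 0.914), and for Pfkfb3 Sgo2a, E130309D02Rik and Myo10 (0.951 to 0.955, and 0.922 to 0.94). For Tigar they were Ddx27, Kank3 and Ints11 (0.969 to 0.972, and 0.946 to 0.958) and for Pfkfb1 Zcchc4, Vamp8 and Cd164 (0.883 to 0.922, and 0.866 to 0.921). Lower values were found for Pfkfb2, with 4921524J17Rik, Vcan and Zup1 (0.759 to 0.795, and 0.697 to 0.748).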

How the data were processed

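RNA of whole organoids was sequenced as TruSeq mRNA libraries with single reads. The authors deposited raw counts per Ensembl gene for each library, with no normalization; their processing notes name cutadapt 1.13, STAR, HTSeq 0.6.1p1, DESeq2 1.14.1 and the build mm10. Neither the annotation release nor the strand setting was given in the sources used here. Of 54232 gene IDs, 99.9% matched GENCODE vM21. Groups and sets were taken from the labels. The genes and lists were chosen with earlier results of these data known.

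Counts were fitted with edgeR 4.0.16 (R 4.3.3; TMM, filterByExpr with the group, 17721 genes, all 12 libraries, quasi-likelihood test), and genes were called at a Benjamini-Hochberg adjusted p under 0.05 over all genes. CPM used the TMM sizes, and log2 CPM a prior count of 2. Deviations from the group means correlated at 0.329 to 0.634 between libraries of the same replicate number, above 0.1 for each of 12 pairs, so results of a fit blocked on this number are printed too. The pairing is read from the data; by the study's methods the replicates are independent experiments, and p-values measure the spread between these libraries. No library repeated another of its group by a chi-square over genes (pairs from different groups were not compared).

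On simulated counts, 44.3% of 97 genes changed by a log2 of 1 were called for LDHi against control without the block and 63.9% with it. Of the unchanged genes, 2 and 9 were called. The simulation gave the groups shared replicate effects and took its spread from the blocked design. A gain with the block was thus built in and does not favour either fit for the real counts. Named genes are the 8, and in each list up to 4 called genes and 2 others with the smallest adjusted p; beyond that rule, Mycn is named as the last of 5 called regulators, and Pgam2, Hk2 and Slc16a3 after their values were seen. In the set comparison the rule was applied to the hypoxia list only. The 3 genes most alike had the highest Pearson r; those of Pfkfb4 are not reported here. Alternatives were DESeq2 1.42.0, the 2 groups alone, RLE sizes, library totals, 2 other filters, a set term, the sets analysed apart, leaving out single libraries and an absolute log2 fold change of at least 1; DESeq2 with the block, and the block with each number left out, were chosen after seeing the data. A comparison of protein sequences was not run. Figures were drawn with matplotlib.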

Additional observations from a re-analysis of the deposited data

How the results depend on the processing

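With the replicate block, 4 of the 8 genes were called in LDHi against control (19.9% of all genes), against 0 without it (3.09%). In LDHi+lactate against control 3 were called with it (8.05%) and 0 without it (0.0%). DESeq2 with the block also called 4 in LDHi against control, beside 1968 genes higher and 2065 lower of 19668. In LDHi+lactate against control it called 4, beside 1204 higher and 1290 lower of 16344. For LDHi against control without the block, DESeq2 called 2, beside 474 genes higher and 853 lower of 19661. The set term called 3 (554 higher and 833 lower of 17721), and replicates 3 and 4 alone 1 (47 and 63 of 17282). The 2 groups alone gave 1. Libraries left out in turn gave 0 to 2, where 2 came beside 219 genes higher and 448 lower of 17663. With the block and each replicate number left out, 2 to 4 genes were called in LDHi against control and 0 to 2 in LDHi+lactate against control. Counts over all genes were not made for these blocked fits or for the 2 groups alone. The cause of the differences between settings was not tested. Calls at a log2 fold change of at least 1 were 0 in these comparisons, and LDHi+lactate against LDHi and both interactions gave 0 in all settings run. The set comparison gave 3 in each setting run, and its calls over all genes were counted in the main fit only. Pfkp had a mean share over the 12 libraries of 9.999% without division by length, Pfkl 77.1% (78.5% by the longest transcript), Pfkm 12.9% (17.05%), Pfkfb1 10.1%, Pfkfb3 69.8% and Pfkfb4 12.9%.

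Signs changed for values that were mostly near 0. With replicates 1 and 2 only, LDHi against control gave -0.043 for Pfkl and -0.065 for Pfkfb1, LDHi+lactate against LDHi gave 0.24 for Pfkp, -0.077 for Pfkfb2 and -0.17 for Pfkfb4, and LDHi+lactate against control gave -0.046 for Pfkl and -0.088 for Pfkfb4. With replicates 3 and 4 only, Pfkfb2 gave -0.12 in LDHi against control and Pfkm -0.0025 in LDHi+lactate against LDHi. Pfkfb1 in LDHi against control gave -0.00024 in DESeq2 and -0.017 with library totals. With libraries left out in turn, the ranges were -0.11 to 0.11 for Pfkfb1 in LDHi against control, and -0.22 to 0.010 for Pfkl, -0.039 to 0.061 for Pfkm, -0.42 to 0.064 for Pfkp and -0.064 to 0.071 for Pfkfb2 in LDHi+lactate against LDHi. They were -0.022 to 0.16 for Pfkl in LDHi+lactate against control. For the set they were -0.29 to 0.045 for Pfkp, -0.019 to 0.13 for Pfkfb2 and -0.16 to 0.015 for Tigar. For the LDHi effect by set they were -0.16 to 0.048 for Pfkm and -0.10 to 0.44 for Pfkfb1, and for the lactate effect by set -0.055 to 0.0018 for Pfkm, -1.13 to 0.085 for Pfkp and -0.15 to 0.47 for Pfkfb1.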
